A study of Mus musculus with 28 samples.

Results

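Kidneys of male mice that carry an acetylation mimetic of aquaporin-3 were compared with those of wild-type males, over every expressed gene. Libraries were placed in the groups by their labels alone, as the 5 libraries labelled male Q and the 5 labelled male WT, which are 10 of the 28 libraries of the study. Per the labels, Q stands for the form of the channel that mimics an acetylated lysine, WT for the unchanged form, and another form, R, mimics the deacetylated lysine. The mice had received no treatment, had been housed on a light and dark cycle with free food and water, and had been killed between 2 and 5 h of zeitgeber time. Their kidneys had been freed of the capsule and snap frozen, polyadenylated RNA had been selected, and fragments had been counted per gene. Strain, age, the copy number of the Q allele and the sites of sampling within the kidney are not given in the labels. Each library was taken as a separate sample as labelled, so p-values measure the spread between libraries, which may be technical.

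Aquaporin-3 is a channel for water and glycerol in the basolateral membrane of the principal cells of the collecting duct. Water drawn from the tubule fluid through aquaporin-2 on the apical side leaves these cells through aquaporin-3 and aquaporin-4. Acetylation of a lysine removes its positive charge, and glutamine is used as its mimic because it is uncharged. The mouse kidney differs between the sexes above all in the proximal tubule, where androgens maintain high transcript levels of enzymes and transporters of one set and low levels of another.

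Male Q replicate 4 stood apart from the other libraries, so the fold changes of the leading genes and the main counts are repeated without it. Total counts of the 10 libraries ran from 16332363 to 21403804, and that of this library was 19614979. Over the 14212 genes with a mean above 1 CPM (cpm of edgeR, a count set against its library's TMM-scaled total), its root mean square difference from the mean of WT on the log2 CPM scale was 0.703. The other Q libraries had 0.270 to 0.285, and the WT libraries, each set against the mean of the other WT libraries, 0.283 to 0.355. In it 1977 of those genes were more than 2-fold away from WT, against 113 to 149 in the other Q libraries. Mitochondrially encoded genes held 7.74% of its counts, against 9.98 to 11.2% in the other Q libraries and 10.2 to 11.5% in WT. As a group, Q had 9.93 ± 1.32% and WT 10.8 ± 0.630% (SD, n = 5 each), a difference of -0.880 percentage points (two-sided exact permutation p = 0.198, where 252 arrangements allow 0.00794 at the least). Without replicate 4 the difference was -0.334 points (exact permutation p = 0.413). The Y-linked Ddx3y stood at 45.8 ± 7.43 CPM with the WT and 46.1 ± 2.23 CPM with the Q form in males, and Xist, which silences an X chromosome in females, at 1.20 ± 0.476 and 1.06 ± 0.461 CPM (SD, n = 5). The edited codon of Aqp3 cannot be read from counts, so the genotype itself was not checked. In the female groups used below, WT replicate 2 had 0.515 CPM of Xist, against 282 to 300.2 CPM in the other female WT libraries, and 0.140 CPM of the Y-linked Ddx3y. Female Q replicate 5 had 3.94% of its counts from mitochondrially encoded genes, against 10.8 to 11.6% in the other female Q libraries.

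No gene passed the test between male Q and male WT. By edgeR's quasi-likelihood test with Benjamini-Hochberg adjustment over 17573 genes, 0 were called at an adjusted p under 0.05 (0%), and the smallest adjusted p was 0.0651, for Kynu. At an unadjusted p under 0.05 there were 515 higher genes (2.93%) and 382 lower ones (2.17%), 897 in all, where 5% of the tested genes is 879. The Wald test of DESeq2 called 3 of 17571 genes (0.0171%), with adjusted p = 2.66e-05 for Kynu, 0.00494 for Rad51c and 0.0192 for Odc1. Estimates were above 0 for 8999 genes (51.2%). In 72 genes (0.410%) every Q library was above every WT library, and in 58 (0.330%) every Q library was below. Of the 252 arrangements of 5 against 5 libraries, 1 gives the first pattern and 1 the second. With the 4 other Q libraries set against WT, which fewer libraries make easier, the genes wholly above and wholly below were 185 (1.05%) and 196 (1.12%). Without replicate 4, edgeR called 0 genes, with a smallest adjusted p of 0.202, and genes at an unadjusted p under 0.05 were 301 higher (1.71%) and 407 lower (2.32%), so that the larger number lay on the other side. Leaving out male WT replicate 1 called Kynu (edgeR adjusted p = 0.0174), and leaving out male Q replicate 5 called Synpr (0.0111) and Kynu (0.0177). No other fit that left out 1 male WT or Q library called a gene. Without male WT replicate 3 the smallest edgeR adjusted p was 0.453. With only the 10 male WT and male Q libraries fitted, where fewer samples set the spread, it was 0.927. The 12 genes with the smallest p in each direction are described next, among those whose sign held in every fit that left out 1 male library. They were selected on those values and on that sign, which are therefore a description.

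Kynu, which encodes the kynureninase that cleaves kynurenine and 3-hydroxykynurenine on the way from tryptophan to NAD, had the smallest p of all genes. It was read at 6.03, 7.08, 12.97, 8.37 and 12.1 CPM in WT replicates 1 to 5 and at 2.75, 3.73, 3.29, 2.49 and 4.88 CPM in Q replicates 1 to 5. Every Q library lay below every WT library, and replicate 4 was the lowest. Set against the mean of WT, the log2 differences of Q replicates 1 to 5 were -1.66, -1.24, -1.41, -1.797 and -0.86. The fitted log2 fold change was -1.44 (SE 0.25, 95% interval -1.95 to -0.93), that is 2.71-fold lower in Q, and -1.35 without replicate 4. Male R kidneys, which share no library with either group, had 6.805 ± 3.11 CPM (SD, n = 5). In females Kynu was 59.8 ± 3.94 CPM with the WT form against 52.2 ± 3.37 with the Q form (SD, n = 5), or -0.19 on the log2 scale. The level of Kynu was thus lower in males than in females in each genotype measured here, and lowest in male Q.

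The other genes of the kynurenine and NAD pathways did not share one direction. Of 18 tested list members 8 had positive and 10 negative estimates, with a median log2 fold change of -0.01 against 0.01 over all tested genes, and 1 higher and 2 lower members had an unadjusted p under 0.05. Kyat1 and Kyat3, aminotransferases that turn kynurenine into kynurenic acid, had estimates of opposite sign. Kyat1 was 113, 104, 66.1, 98.6 and 78.1 CPM in the WT libraries and 99.2, 114, 126, 158 and 106 in Q, with a fitted log2 difference at 0.39 (SE 0.129), and at 0.27 without replicate 4. Kyat3 was 48.5, 52.8, 56.7, 55.8 and 49.8 CPM in WT and 40.97, 44.3, 46.3, 42.2 and 52.7 in Q, which is -0.22 (SE 0.0947) as a log2 fold change, or -0.197 without replicate 4. Both pairs of groups overlapped. Nnmt, which methylates nicotinamide, averaged 1.18 ± 0.409 CPM over the WT and 1.71 ± 0.568 CPM over the Q libraries (SD, n = 5).

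Odc1 encodes ornithine decarboxylase, which makes putrescine and so starts polyamine synthesis, and it is among the transcripts that androgens raise in the mouse proximal tubule. Its level was 1817, 1498, 1246, 1065 and 909 CPM in WT replicates 1 to 5 and 2131, 2505, 3272, 2982 and 1998 CPM in Q replicates 1 to 5. All Q libraries were above all WT libraries, and the WT libraries themselves spread from 909 to 1817 CPM. Log2 differences from the mean of WT were 0.75, 0.98, 1.37, 1.23 and 0.66 in Q replicates 1 to 5. The fitted log2 fold change was 0.98 (SE 0.214, 95% interval 0.54 to 1.42), 0.92 without replicate 4, with an edgeR quasi-likelihood adjusted p of 0.381. Male R kidneys had 1546 ± 674 CPM (SD, n = 5), and females of the Q form differed from female WT by 0.203 on the log2 scale.

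Of the 20 tested genes of polyamine metabolism, Odc1 and Azin2 were those with an unadjusted p under 0.05, and they lay on opposite sides. Azin2, an antizyme inhibitor that protects ornithine decarboxylase from breakdown, was 10.3, 8.55, 11.7, 10.2 and 9.23 CPM in the WT libraries and 7.74, 7.703, 4.73, 7.403 and 6.83 CPM in Q. Every Q library lay below every WT library, with a log2 fold change of -0.54 (SE 0.153) and -0.57 without replicate 4. The list had 13 positive and 7 negative estimates and a median of 0.07, which was -0.02 without replicate 4. Oaz1, the antizyme, was 554, 559, 546, 1130.1 and 519.95 CPM in Q replicates 1 to 5 and 498 to 563 CPM in WT, so that its log2 fold change of 0.298 became 0.01 without replicate 4. Amd2, a copy of the S-adenosylmethionine decarboxylase gene whose reads could also map to Amd1, averaged 0.333 ± 0.149 CPM over the WT and 0.566 ± 0.118 CPM over the Q libraries (SD, n = 5).

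Rad51c, which serves homologous recombination, was 3.12, 3.89, 2.57, 1.6996 and 3.35 CPM in WT replicates 1 to 5 and 6.12, 5.11, 6.797, 6.84 and 4.77 CPM in Q replicates 1 to 5. The groups did not overlap, and the lowest count in a library was 26 fragments. The log2 fold change was 1.01 (SE 0.205), 0.96 without replicate 4, with an edgeR quasi-likelihood adjusted p of 0.152, against -0.27 in females.

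Synpr, which encodes a synaptic vesicle membrane protein, had the largest estimate among these genes at very low counts. It was 0.302, 0.708, 0.194, 1.18 and 0.118 CPM in the WT libraries and 2.69, 4.61, 6.11, 5.47 and 0.65 CPM in Q, with as few as 2 fragments in a library. In 4 of the 5 Q libraries it was above every WT library, and replicate 5 lay within the WT range. The log2 fold change was 2.996 (SE 0.567), 2.84 without replicate 4, and 3.27 without replicate 5. Male R kidneys had 0.529 ± 0.372 CPM (SD, n = 5).

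Several enzymes of the tubule were among the remaining genes with higher levels. Gusb, the lysosomal beta-glucuronidase, was 49.8, 66.01, 45.5, 54.98 and 47.2 CPM in WT and 66.8, 74.6, 85.8, 85.04 and 56.4 in Q, which is 0.48 (SE 0.116) as a log2 fold change, or 0.43 without replicate 4. Of the Q libraries only replicate 5 lay within the WT range. Of the 15 lysosomal genes tested it was the only one with a higher level at an unadjusted p under 0.05, and the list median was -0.01. Its next members by p were Glb1 (0.16, 0.05 without replicate 4), Tfeb (0.15, 0.04) and Lamp2 (-0.0998, -0.04).

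Acy3, an aminoacylase of the proximal tubule, was 2854, 2563, 2966, 2634 and 2279 CPM in WT and 3218, 3481, 3589, 5037 and 3046 in Q. The groups did not overlap, and the log2 fold change of 0.47 (SE 0.129) was 0.32 without replicate 4, the highest library. Slc30a2, a zinc transporter, was 107, 72.6, 89.9, 105 and 83.3 CPM in WT and 119, 122, 135, 135 and 124 in Q. Here too the groups did not overlap, and the log2 fold change was 0.47 (SE 0.131), or 0.45 without replicate 4. Shmt2, the mitochondrial serine hydroxymethyltransferase, was 247, 249, 239.8, 229 and 238 CPM in WT and 292, 281, 289.7, 325 and 259 in Q, again without overlap (log2 fold change 0.27, SE 0.077, or 0.22 without replicate 4).

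Adh1, an alcohol and retinol dehydrogenase, was 554, 557, 546, 669.6 and 516 CPM in WT and 684, 684, 957, 1696 and 653 in Q. Replicate 4 was far above the other Q libraries, and without it the log2 fold change of 0.72 (SE 0.176) was 0.39. Ramp3, a partner protein of the calcitonin receptor-like receptor, was 17.4, 15.8, 18.5, 19.2 and 16.98 CPM in WT and 20.1, 21.9, 27.5, 48.03 and 21.8 in Q, with no overlap but the same high library, and its log2 fold change of 0.66 was 0.37 without replicate 4. The other 3 were the CSF1 receptor ligand Il34 (0.53, 0.41 without replicate 4), the RNA-binding Khdrbs3 (0.39, 0.29) and Rabggta, a subunit of the enzyme that prenylates Rab proteins (0.39, 0.27). Replicate 4 was the highest Q library in 9 of the 12 genes with higher levels.

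Among the genes with lower levels, Hao2, a peroxisomal hydroxyacid oxidase, was 173, 206, 231, 318 and 403 CPM in WT and 164, 143, 115, 101 and 176 in Q. Replicate 5 of Q just reached the lowest WT library, and the log2 fold change was -0.93 (SE 0.235), or -0.83 without replicate 4. Clec2h, a C-type lectin, was 69.7, 74.3, 91.6, 72.8 and 82.3 CPM in WT and 50.3, 45.96, 29.2, 36.8 and 54.3 in Q, with no overlap (log2 fold change -0.85, SE 0.232, and -0.8004 when replicate 4 was left out). Slc7a7, a light chain of the basolateral exporter of cationic amino acids, was 203, 179.6, 199, 185 and 199 CPM in WT and 139, 149, 136, 127 and 161 in Q. Its groups did not overlap either, and the log2 fold change of -0.44 (SE 0.118) was -0.404 without replicate 4.

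Npl, the lyase that breaks down sialic acid, was 45.1, 45.2, 42.4, 68.2 and 59.4 CPM in WT and 33.7, 41.2, 35.2, 30.05 and 33.2 in Q, without overlap (log2 fold change -0.59, SE 0.159, or -0.54 without replicate 4). Acss1, a mitochondrial acetyl-CoA synthetase, was 275, 286, 293, 288 and 267 CPM in WT and 235, 231, 217, 187 and 256 in Q, also without overlap (log2 fold change -0.32, SE 0.0889, or -0.27 without replicate 4). Htra2, a mitochondrial protease, stayed between 26.7 and 27.5 CPM in WT and was 23.7, 21.3, 24.1, 17.05 and 22.2 in Q (log2 fold change -0.32, or -0.25 without replicate 4). Adgrg4, an adhesion receptor gene of the X chromosome, was 5.93, 7.02, 7.94, 10.5 and 8.81 CPM in WT and 5.05, 4.92, 4.195, 5.101 and 5.26 in Q (log2 fold change -0.71, SE 0.181, or -0.73 without replicate 4), without overlap. Pla2g5 (-0.69, or -0.56 without replicate 4), Pfkfb1 (-1.299, -1.34), Sult1c2 (-0.47, -0.59) and Fhod3 (-0.39, -0.3002) completed the 12, with overlapping groups. Replicate 4 was the lowest Q library in 8 of the 12. Of the 24 genes, 9 have exons that overlap a gene on the other strand in GENCODE release 21. They are Adh1, Ramp3, Il34, Shmt2, Pfkfb1, Htra2, Slc7a7, Acss1 and Fhod3. No strand option was set in the counting, so reads from the shared stretches cannot be assigned by strand and may be left uncounted for both genes.

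**Figure D1:**
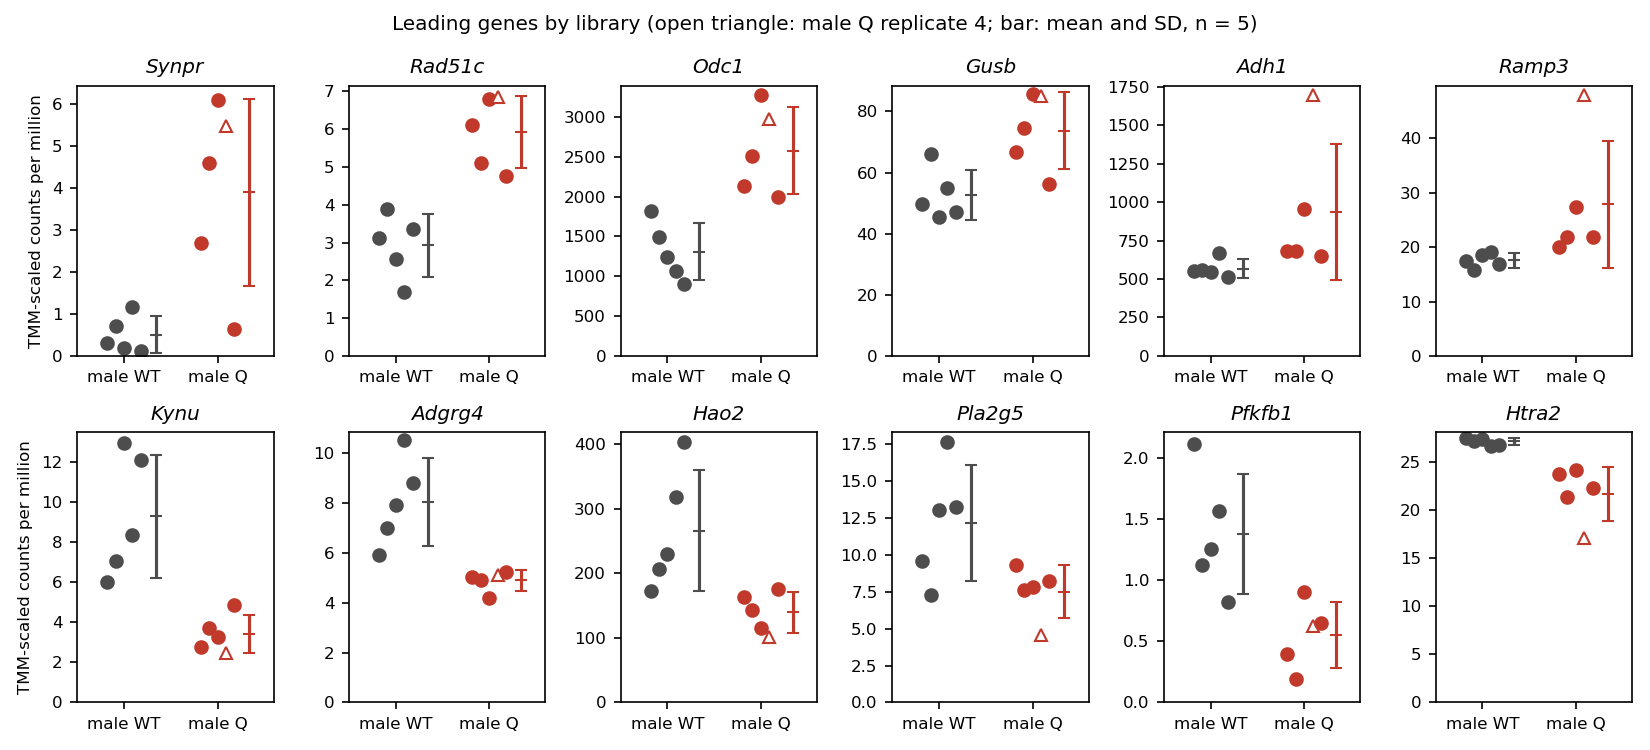
Level in CPM (vertical, linear from 0) in each male WT and male Q library (horizontal) for the 6 genes of smallest p with higher and the 6 with lower estimates, with mean and SD over 5 libraries. Odc1, Rad51c and Ramp3 have all Q libraries above all WT libraries, Kynu, Adgrg4 and Htra2 all below, and the open triangle marks male Q replicate 4, the highest Q library of Adh1 and Ramp3.

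The same genes were looked at in females, where Q and WT also had 5 libraries each. Of the 12 higher genes 7 had a positive estimate in females, and of the 12 lower genes 6 had a negative one. The interaction of Q and sex called 0 genes by edgeR's quasi-likelihood test, with a smallest adjusted p of 0.999, and 547 genes had an unadjusted p under 0.05 (3.11%). By DESeq2 it called 0 genes too. An unadjusted interaction p under 0.05 was seen in 10 of the 12 higher and 11 of the 12 lower genes, among them Rad51c (-0.27 in females and 1.01 in males), Npl (0.26 and -0.59) and Adh1 (-0.11 and 0.72). They had been selected on the male side of that contrast, so this count says nothing about the sexes by itself. Gusb, Acy3 and Slc30a2 had female log2 fold changes of 0.03, -0.0005 and 0.07.

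**Figure D2:**
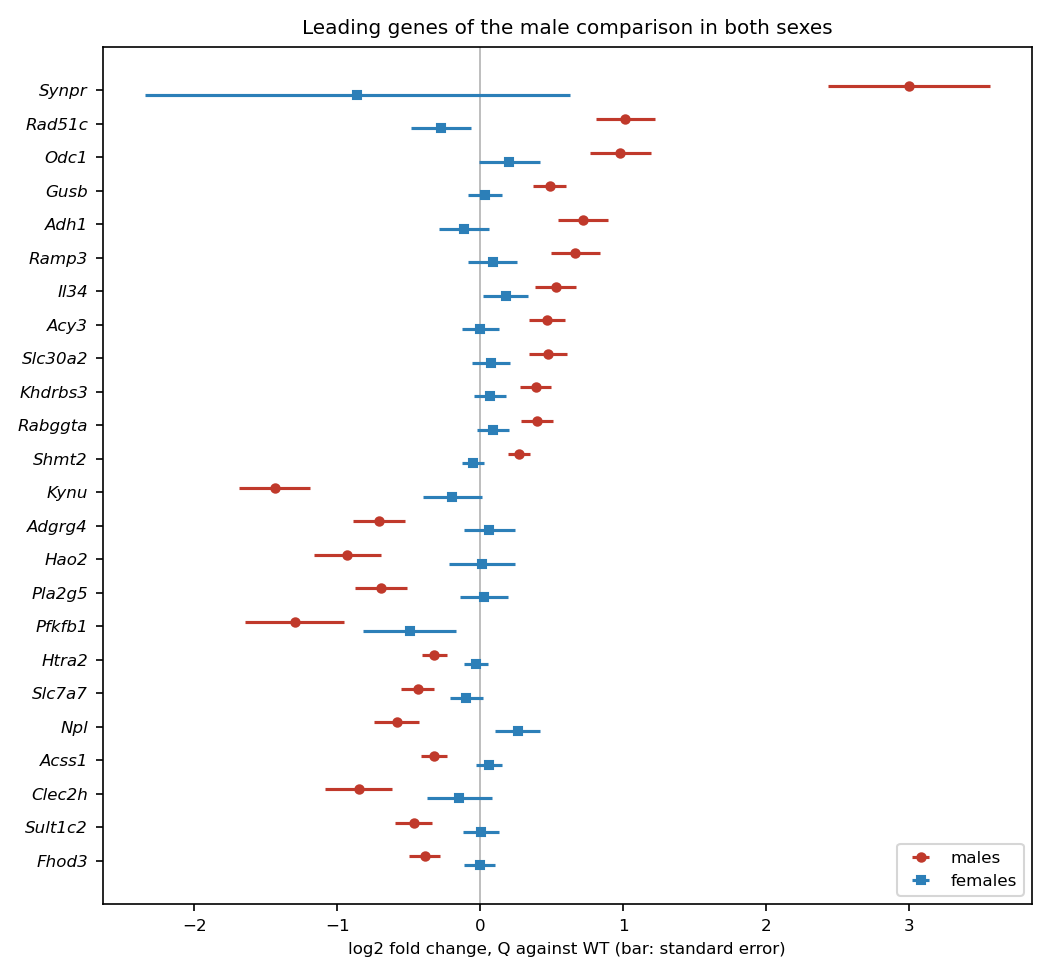
Log2 fold change of Q against WT with its standard error (horizontal) in males and females for the 24 leading genes of the male comparison (vertical). In females 7 of the 12 upper genes have a positive and 6 of the 12 lower genes a negative estimate, and most lie near 0.

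Replicate 4 differed from the rest by transcript length. The genes were put into 10 bins of equal size by their longest annotated transcript, and the median log2 difference from WT was taken in each. For a WT library this was the difference from the mean of the other WT libraries. In replicate 4 it went from 0.80 in the bin of the shortest to -0.40 in that of the longest transcripts. In the other Q libraries it lay between -0.09 and -0.04 in the shortest and between 0.02 and 0.08 in the longest, while WT libraries ranged from -0.11 to 0.13 and from -0.11 to 0.16. Across 14018 genes the Spearman correlation of length with the log2 difference was -0.478 in replicate 4, 0.0637 to 0.229 in the other Q libraries and -0.257 to 0.323 in WT. These correlations are across genes of 1 library and are given as a description. Genes farthest above the median of the other male WT and Q libraries in replicate 4, chosen on that value, were the immunoglobulin genes Igha (2.72) and Igkc (2.34), the haemoglobin genes Hba-a2 (2.27) and Hba-a1 (2.03), the mitochondrial flavoprotein Etfb (2.18), the glutathione peroxidase Gpx1 (2.15), mt-Tl2 (2.08) and Defb29 (1.997), as log2 differences. Hba-a1 and Hba-a2 are near-identical copies, and reads that map to both may be left uncounted. The farthest below were Usp33 (-3.38), Mfsd9 (-3.12), Acss3 (-3.12), Dgkq (-3.09), complement factor Cfb (-3.07), Pdpr (-2.91), Echdc1 (-2.88) and Fam120c (-2.85). Usp33, a deubiquitinase, was 2.92 CPM in replicate 4 and 30.95 to 34.1 in the other Q libraries.

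**Figure D3:**
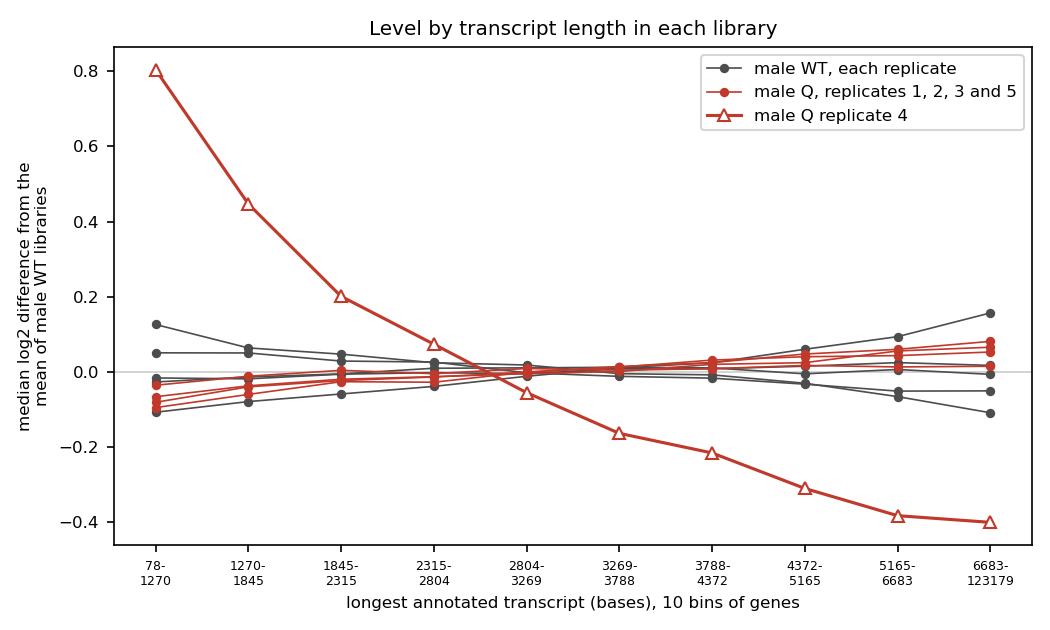
Median log2 difference from the mean of the male WT libraries (vertical) for 10 bins of genes ordered by the length in bases of their longest annotated transcript (horizontal), 1 line per library. Each WT library was set against the mean of the other WT libraries. Male Q replicate 4 runs from 0.80 in the shortest to -0.40 in the longest bin, while the other Q and the WT libraries stay between -0.11 and 0.16.

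Many of the leading genes differ between the sexes. To describe this, autosomal genes were sorted by the contrast of male R (n = 5) against female R (n = 3). There, of 17573 tested genes, edgeR called 1205 autosomal genes higher in males and 1163 higher in females. No WT or Q level enters that contrast, but the fit held all 28 libraries. Its scaling and dispersions therefore enter both these calls and the p-values of Q against WT. Of the 12 higher genes 10 were male-biased and 0 female-biased, with male over female log2 fold changes in R such as 1.88 for Odc1, 2.13 for Adh1, 2.13 for Il34 and 2.08 for Acy3. Of the 12 lower genes 0 were male-biased and 6 female-biased, among them Kynu (-3.11), Hao2 (-1.79) and Pla2g5 (-1.17). Genes of the X chromosome, such as Adgrg4 among the 12, were not sorted and count as neither.

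The pattern reached beyond the leading genes. Of all male-biased genes 974 (80.8%) had a positive estimate in male Q against male WT, and of all female-biased genes 269 (23.1%) did, against 51.2% of all tested genes. Their median log2 fold changes were small, 0.11 and -0.11. Without replicate 4 the counts were 833 (69.1%) and 362 (31.1%), with medians of 0.05 and -0.07, against 48.0% of all genes. In the female comparison of Q and WT the counts were 664 (55.1%) and 530 (45.6%). Over all the alternative settings of the male comparison, positive estimates numbered 833 to 995 of the male-biased and 258 to 362 of the female-biased genes.

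Among genes that differed more than 2-fold between the sexes in R, 264 of 342 male-biased genes had positive and 252 of 350 female-biased genes negative estimates, with medians of 0.202 and -0.201. Without replicate 4 the medians were 0.15 and -0.15. At an unadjusted p under 0.05 there were 64 higher male-biased genes (18.7%) and 50 lower female-biased genes (14.3%), where the shares of all genes were 2.93% and 2.17%. Without replicate 4 they were 41 (12.0%) and 49 (14%), against 1.71% and 2.32% of all genes. None of them passed the adjusted test. Median transcript lengths were 2175 bases for the male-biased and 2609.5 for the female-biased genes, against 3060.0 for all, and the part of the length trend of replicate 4 in these medians was not tested.

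Each library was given the mean log2 CPM of the male-biased minus that of the female-biased genes of more than 2-fold. This difference was 2.896, 2.71, 2.51, 2.897 and 2.64 in male WT replicates 1 to 5 and 3.02, 3.04, 3.22, 3.36 and 2.92 in male Q replicates 1 to 5. Every Q library was above every WT library, replicate 5 by the least, and replicate 4 was the highest. Male R libraries, on which the genes had been selected, had 3.02, 2.76, 2.85, 3.15 and 2.70 in replicates 1 to 5, each within or above the WT range. Median log2 differences from WT of the male-biased genes were 0.13, 0.202, 0.26, 0.38 and 0.11 in Q replicates 1 to 5, and those of the female-biased genes -0.15, -0.13, -0.198, -0.29 and -0.07. Over all called sex-biased genes, whatever their fold, the groups overlapped, with Q replicate 5 at 2.31 and WT replicate 4 at 2.36. WT and Q libraries of females lay between -0.78 and -0.42 on the 2-fold measure, and the groups overlapped.

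**Figure D4:**
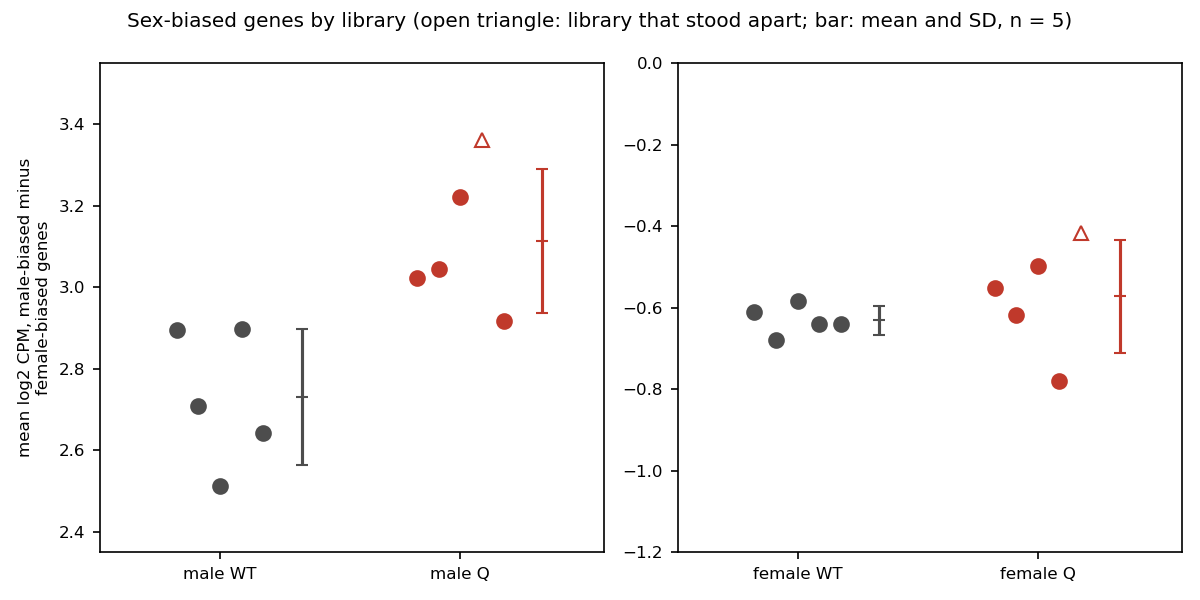
Mean log2 CPM of male-biased minus female-biased genes (vertical, log2 scale, separate ranges of equal width for the sexes) in each WT and Q library (horizontal), with mean and SD over 5 libraries. Male Q libraries sit between 2.92 and 3.36, above the male WT libraries at 2.51 to 2.90, and female libraries overlap between -0.78 and -0.42.

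Of the male-biased genes of more than 2-fold, 16 (4.68%) had every Q library above every WT library and 0 every Q library below. Of the female-biased genes 8 (2.29%) lay wholly below and 1 (0.286%) wholly above, where the shares of all tested genes were 0.410% above and 0.330% below. Without replicate 4, 24 male-biased genes (7.02%) lay wholly above and 14 female-biased genes (4%) wholly below, against 1.05% and 1.12% of all genes. The genes named in the rest of the paragraph were chosen after their values were seen. The 16 hold Odc1, Acy3 and Slc30a2, other protein-coding genes such as Mogat1, Myom3, Ccdc6 and Nhp2, and noncoding genes such as Gm27216 and BC049987. Nhp2 had a log2 fold change of 0.78, or 0.29 without replicate 4. The nephron segment of the 16 as a set was not tested. Ephx2, the soluble epoxide hydrolase, was 419, 448, 459, 431 and 414 CPM in WT and 510.2, 520.4, 560.01, 632 and 482 in Q, a log2 fold change of 0.32 or 0.25 without replicate 4. Slc22a12, the urate transporter of the brush border, was 1492, 1486, 1447, 1381 and 1429 CPM in WT and 1528, 1661, 1663, 2169 and 1593 in Q (0.25, or 0.15). Treh, the brush border trehalase, had 0.295 (0.17 without replicate 4), and Serpinf2, which encodes a plasmin inhibitor, 0.39 (0.23). The 8 female-biased genes were Kynu, Uroc1, Oat, Slc7a2, Acnat1, Atp8b4, Lrriq4 and Gfpt2. Between male and female WT, Atp8b4, Lrriq4 and Slc7a2 had log2 fold changes of -0.04, -0.35 and -0.27 (edgeR quasi-likelihood adjusted p = 0.949, 0.584 and 0.416). Their bias in R was thus not called in WT. The rest ran from -2.68 for Kynu to -0.74 for Gfpt2 between male and female WT. Uroc1, an enzyme of histidine breakdown, was 50.9, 58.8, 45.8, 49.5 and 54.001 CPM in WT and 37.5, 37.3, 37.3, 39.01 and 40.5 in Q, a log2 fold change of -0.43 or -0.44 without replicate 4. Oat, the ornithine aminotransferase, which draws on the same substrate as Odc1, was 153, 151, 169.6, 155 and 158 CPM in WT and 134, 141, 123, 125 and 144 in Q (-0.24, or -0.22).

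A shorter list of male-biased tubule genes from textbook knowledge, drawn up with earlier results of these libraries known, had positive estimates for 13 of 14 members, with 6 at an unadjusted p under 0.05 and 0 called, where 51.2% of all genes were positive and 2.93% higher at that p. Without replicate 4 the members at that p were 5. Its median log2 fold change was 0.38, 0.25 without replicate 4 and 0.07 in females, where 0.01 was the median of all genes in males. Per library the medians were 0.099, 0.13, -0.19, 0.07 and -0.19 in WT and 0.27, 0.26, 0.49, 0.53 and 0.13 in Q. The lowest Q library and the highest WT library were nearly level. Beside Odc1 and Gusb, Nudt19, a peroxisomal hydrolase of coenzyme A, was 746, 826, 537, 549.8 and 508 CPM in WT and 898, 1012, 1180.5, 1904 and 686 in Q, with a fitted log2 difference at 0.84 (SE 0.257), and at 0.57 without replicate 4. Cyp2j13, a cytochrome P450, was 286, 287, 212, 294 and 267 CPM in WT and 337, 339, 416, 397 and 314 in Q, without overlap (log2 fold change 0.42, or 0.38). The 7 female-biased tubule genes had 5 negative estimates and a median of -0.29, and without male WT replicate 2 the median was 0.08. Slc7a12, an amino acid transporter of the last proximal segment, was 3.47, 2.596, 4.79, 16.2 and 21.7 CPM in WT and 2.75, 4.74, 2.23, 1.62 and 1.57 in Q, so that replicates 4 and 5 of WT were high and the rest overlapped. The prolactin receptor Prlr was at -0.64 (SE 0.423) on the log2 scale, and Slco1a6, an organic anion transporter, at 0.16 (SE 0.103). Cyp2a4, a member of the female-biased list at -0.29 (SE 0.156), was higher in males in the R libraries (1.24).

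Genes of androgen, prolactin and growth hormone signalling had estimates of both signs, with 6 positive and 7 negative estimates and a median of -0.02 (0.01 without replicate 4). One of its 13 members had an unadjusted p under 0.05, with a positive estimate.

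Aqp3 itself did not differ between the groups beyond their spread. Its level was 125, 93.5, 137, 132 and 117 CPM in WT and 115, 110.4, 115, 97.98 and 117 CPM in Q, each library holding at least 1575 fragments. The Q libraries lay within the WT range, and replicate 4 was the lowest of them. The log2 fold change was -0.12 (95% interval -0.33 to 0.08), -0.08 without replicate 4, and -0.20 to -0.07 over the fits that left out 1 male WT or Q library.

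Of the 9 aquaporins tested 7 had negative estimates and 3 of them an unadjusted p under 0.05, with 0 called, where 2.17% of all genes were lower at that p. Without replicate 4 it was 1 of the 9, against 2.32% of all genes. Aqp1, through which water leaves the proximal tubule and the thin descending limb, was 1026, 1035, 1015, 1154 and 1209.8 CPM in WT and 1019, 975, 911, 778 and 960.2 in Q, with a fitted log2 difference at -0.23 (SE 0.0954), and at -0.17 without replicate 4, the lowest library. Aqp7, an aquaglyceroporin of the proximal tubule, was 18.6, 20.5, 22.1, 16.5 and 20.4 CPM in WT and 16.4, 16.2, 14.3, 18.4 and 15.1 in Q (-0.29, SE 0.11, or -0.34 without replicate 4). Aqp4, the partner of aquaporin-3 in the basolateral membrane, was 21.3, 29.02, 21.01, 54.4 and 45.5 CPM in WT and 28.6, 25.1, 22.1, 11.3 and 20.4 in Q (-0.67, SE 0.272, or -0.51). WT replicates 4 and 5 were high in Aqp4, the rest overlapped, and in the R libraries Aqp4 was female-biased (-1.19). Aqp2, the vasopressin-regulated channel, was 282, 517, 408, 404 and 367 CPM in WT and 422, 323, 330.02, 587 and 249 in Q, with replicate 4 of Q the highest of all, and its log2 fold change of -0.05 (SE 0.244) was -0.26 without that library and 0.06 without male WT replicate 2. Aqp6 had -0.18 (SE 0.205), or 0.03 without male WT replicate 2, at 93.6 CPM the highest library. Aqp8 had -0.603 (SE 0.364), and the positive estimates were those of Aqp11 (0.15, SE 0.0932) and Aqp5 (0.28, SE 0.634, at 0.242 CPM in WT). Aqp9 and Aqp12 were too low to test.

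Principal cells express Aqp2, Aqp3 and Aqp4 together with the epithelial sodium channel, and their list had 4 positive and 6 negative estimates, with a median of -0.04 (-0.07 without replicate 4 and 0.06 without male WT replicate 2). The transcription factor Gata3 had a log2 fold change of 0.39 that was 0.19 without replicate 4, and the sodium channel subunit Scnn1g one of -0.204 that was -0.09. Intercalated cells are the acid and base secreting cells beside them. Of their 18 genes 12 had negative estimates, 2 with an unadjusted p under 0.05 and 0 called, where 2.17% of all genes were lower at that p. The median of this list was -0.16, or -0.08 without replicate 4, where 0 members had an unadjusted p under 0.05. Per library it was -0.101, 0.22, -0.03, -0.04 and 0.02 in WT and -0.01, -0.09, -0.12, -0.31 and -0.15 in Q. Replicates 1 and 2 of Q thus lay within the WT range. Atp6v1b1, which belongs to the proton pump, was 88.6, 96.8, 92.3, 94.5 and 98.4 CPM in WT and 81.5, 86.1, 82.04, 71.9 and 88.95 in Q (-0.197, or -0.16 without replicate 4). Kit was -0.35 and -0.201, the anion exchanger Slc26a4 -0.17 and -0.18, and Hepacam2 -0.202 and -0.23, with and without that library. These 4 had the smallest p of the list, and its 6 positive estimates reached 0.11 at the most, for Rhbg. In bulk tissue the number of cells of a type and the RNA per cell cannot be told apart.

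Markers of the other nephron segments had medians near that of all genes. Proximal tubule genes had 13 of 18 negative estimates and a median of -0.06. Within them Gatm, of creatine synthesis, had -0.24 (SE 0.132), the phosphate transporter Slc34a3 -0.19 (SE 0.116) and the dicarboxylate transporter Slc13a3 0.21 (SE 0.107). The gamma-glutamyltransferase Ggt1 had 0.28, or 0.102 without replicate 4, where it was 2468 CPM against 1438 to 1557 in the other Q libraries. Genes of the last proximal segment, S3, had a median of 0.06. The cystine transporter subunit Slc3a1 had -0.25 (-0.12 without replicate 4), Slc5a10 -0.17 (-0.29) and Atp11a 0.29 (0.44). Atp11a was 1564, 1082, 1056, 1076 and 1018 CPM in WT and 1470.2, 1574, 1638, 826 and 1602 in Q, so that WT replicate 1 lay among the Q libraries and Q replicate 4 below all WT libraries.

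The thick ascending limb list had 8 of 13 negative estimates and a median of -0.06, or -0.02 without replicate 4. Slc12a1, the sodium, potassium and chloride transporter, was 917, 1041, 1044, 1108 and 1046 CPM in WT and 1011, 984, 986, 468 and 930.5 in Q. It was low in replicate 4 alone, and so were Umod and Egf, whose log2 fold changes went from -0.12 to -0.01 and from -0.17 to -0.01 when it was left out. That of Slc12a1 went from -0.24 to -0.08, and Ptger3 had -0.18 and -0.15. Distal convoluted tubule genes had a median of -0.08. The thiazide-sensitive transporter Slc12a3 had -0.19 (SE 0.144), the calcium channel Trpv5 -0.38 (-0.18 without replicate 4), Fgf13 -0.63 (SE 0.535) and the calcium-binding Pvalb 0.29, which was -0.14 without replicate 4. Thin limb and inner medulla genes had 7 of 9 negative estimates and a median of -0.11 (-0.05 without replicate 4). Among them the aldose reductase Akr1b3 had 0.36 (SE 0.376), the urea transporter Slc14a2 -0.15 (SE 0.197) and Fst, an inhibitor of activins, -0.49 (SE 0.253). None of these segment genes was called.

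Immediate early genes are the transcription factors and regulators that cells induce within minutes of a stimulus. They had 17 of 22 positive estimates, 3 with an unadjusted p under 0.05 and 0 called. Of all tested genes 51.2% were positive and 2.93% higher at that p. Without replicate 4 the members higher at that p were 2, against 1.71% of all genes. The list median was 0.28 (0.2999 without replicate 4, but 0.05 without replicate 1). Per library the median was 0.35, 0.18, -0.22, -0.17 and -0.07 in WT and 0.94, 0.31, 0.005, 0.29 and -0.27 in Q. Replicate 1 of Q was the highest, and the remaining Q libraries lay within the WT range, except replicate 5, which was below all 5. Fosb was 0.955, 0.177, 0.581, 0.196 and 0.294 CPM in WT and 6.68, 2.27, 0.85, 0.747 and 0.325 in Q, which is 2.24 (SE 0.66) as a log2 fold change that rested on Q replicates 1 and 2 and was 1.18 at the least with 1 library left out. Ier3 was 29.02, 31.3, 27.7, 27.8 and 20.7 CPM in WT and 44.3, 40.2, 31.2, 47.5 and 34.04 in Q (0.53, SE 0.208), with only replicate 3 within the WT range. Atf3 had 0.75 (SE 0.396, or 0.21 without replicate 1 of Q) and Nr4a2 0.98 (SE 0.416). These 4 had the smallest p of the list, and its 5 negative estimates included Socs3 at -0.43 and Myc at -0.23.

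Across the 39 lists with at least 3 tested members, 19 had a positive median. The lists hold 540 genes, of which 522 were tested and 18 were too low. The lowest median was that of adipocyte genes, which mark perirenal fat left on a kidney, at -1.03 with 8 of 9 negative estimates and 0 at an unadjusted p under 0.05, and it was -0.48 without male WT replicate 2 and -1.54 without male Q replicate 3. It varied from library to library within both groups, with medians of 0.33, 1.601, 0.47, -0.401 and -1.52 in WT and -1.83, -0.73, 0.53, 0.09 and -1.47 in Q. The summed level of its genes was 54.5 to 156 CPM in WT and 52.2 to 109 in Q. Urothelial genes, of the lining of the renal pelvis, had 8 of 9 negative estimates and a median of -0.299 (0.05 without male WT replicate 2), with summed levels of 21.4 to 62.1 CPM in WT and 23.4 to 44.7 in Q. Leukocyte genes summed to 900.1 CPM in replicate 4, 420.3 to 500.4 in the other Q libraries and 444 to 595 in WT. Erythroid genes summed to 500.3 CPM in replicate 4, 144 to 246 in the other Q libraries and 105 to 396 in WT. Their part in the other results was not tested.

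Leaving out replicate 4 turned the sign of the median in 10 of the 39 lists. Of the 4 that moved the most, the nuclear genes of the respiratory chain went from 0.14 to -0.06, leukocyte genes from 0.04 to -0.09, tubule injury genes from 0.09 to -0.14 and erythroid genes from 0.23 to -0.16. The 13 mitochondrially encoded protein genes had medians of -0.06 and -0.07. Genes of lysine acetylation, the acetyltransferases and deacetylases, had 13 positive and 15 negative estimates and medians of -0.02 and -0.01. Glycerol metabolism, the pathway of the solute that aquaporin-3 carries, had 0.03 and -0.03, and osmolyte and tonicity genes, which respond to the concentration of the medulla, had -0.11 and -0.04. In the plot of list medians, the male-biased tubule list was the highest with all libraries and the immediate early list without replicate 4.

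**Figure D5:**
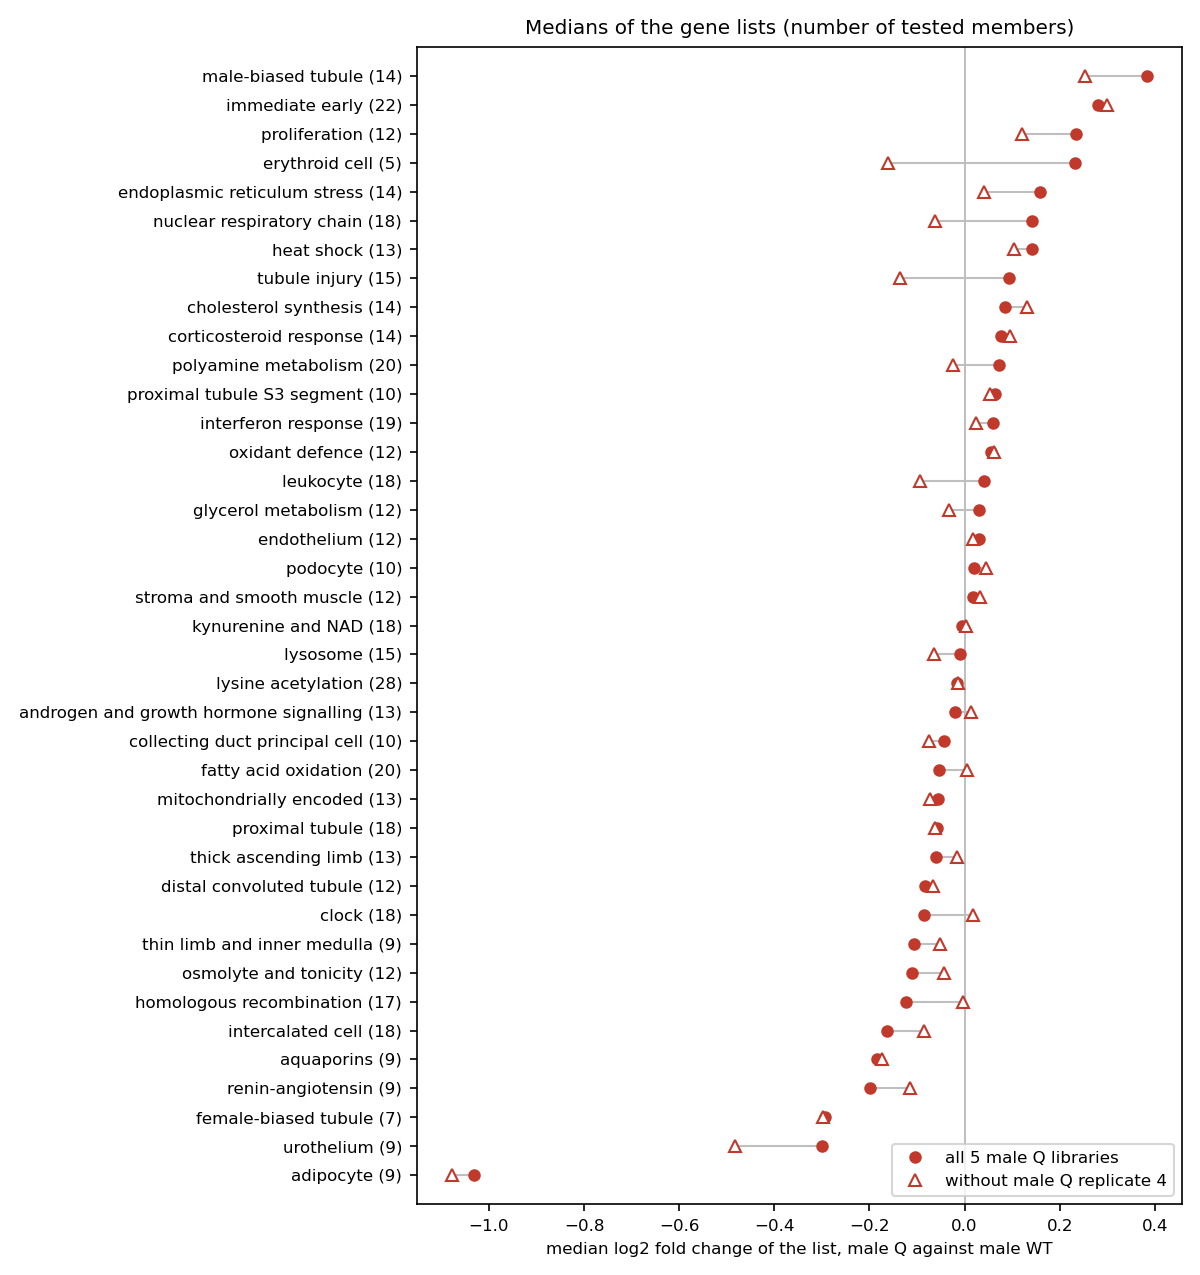
Median log2 fold change of male Q against male WT (horizontal) for the 39 gene lists (vertical, with the number of tested members), with all 5 Q libraries (filled) and without male Q replicate 4 (open). The male-biased tubule list lies highest at 0.38 with all libraries and moves to 0.25, below the immediate early list at 0.2999, the adipocyte list lies lowest at -1.03, and 10 lists cross 0, with the widest moves in the nuclear respiratory chain, leukocyte, tubule injury and erythroid lists.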

How the data were processed

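The values are whole-number counts of fragments per gene over exons, deposited by the authors for 28 libraries with no scaling. Per the file headers they were made with featureCounts 2.0.1 on Ensembl release 107 of GRCm39 with no strand option and none for reads mapping to several places, and the submitters' processing notes add Trim Galore 0.6.7, SAMtools 1.6 and DESeq2 1.38.3. The aligner is not given in the sources used here. Counts were listed for 56748 genes, 52073 of them with a symbol, and the unnamed ones held 0.669% of the counts.

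The analysis used edgeR 4.0.16 under R 4.3.3. The filter filterByExpr kept 17573 genes with 99.91% of the counts, 400 without a symbol, and libraries were scaled by TMM. The model held 6 group means over 28 libraries (22 residual degrees of freedom), and robust quasi-likelihood tests were adjusted by Benjamini-Hochberg, with a threshold of 0.05. The common dispersion had a square root of 0.176. SE was taken from each fold change and its F statistic, as the size of the first over the root of the second, and intervals at 95% rest on it. Log2 CPM used a prior count of 2. Transcript lengths (98.8% of genes) and exon overlaps came from GENCODE release 21 on GRCm38, matched by identifier, so no coordinates are given.

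Libraries were grouped by their labels, while the male comparison was singled out and the gene lists were drawn up with earlier results of these data known. Named genes are the tested aquaporins, the 12 genes of smallest p in each direction with at least 1 CPM, a sign kept in each fit that left out 1 library and a symbol other than a clone name, genes called by DESeq2 or a replicate block, up to 4 members of smallest p of 15 described lists (1 of which is not reported here), and the 8 genes highest and lowest in male Q replicate 4 at 5 CPM or more. The sex-biased genes of the R libraries, the length bins and the counts of groups without overlap that leave out male Q replicate 4 were added after the data were seen. No pair of replicates agreed within sampling noise (lowest chi-square 6.30 per degree of freedom). On simulated counts of the 17573 genes for male Q against male WT, with 200 genes changed, the test called 35.8%, 71.6% and 95.5% of those changed by 0.5, 1 and 2 on the log2 scale, and 8 of its 143 calls were false. The simulated libraries had no sex difference, no library that stood apart and no length trend, so these rates may not hold for the data. Alternatives were DESeq2 1.42.0 (size factors, Wald test), TMM without mitochondrially encoded genes, voom with quality weights (limma 3.58.1), no robust estimation, no filter, the 10 libraries alone, replicate blocks, and leaving out each male library, both libraries that stood apart, or female WT replicate 2.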

Additional observations from a re-analysis of the deposited data

Results flagged for a closer look

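Each gene named from the list, aquaporin and leading-gene rules was checked in the male WT and the male Q group for a library whose gap to its nearest neighbour was a large part of the range of the 5. Of 158 such groups 17 (10.8%) held one, and chance gives about 1 in 20. Male Q replicate 4 was that library in 14 of the 17. It was the high one for Ramp3 (48.0 CPM against 20.1 to 27.5 in the other Q libraries), Acy3 (5037 against 3046 to 3589), Rabggta (136 against 92.4 to 101), Ggt1 (2468 against 1438 to 1557), Pvalb (78.0 against 23.2 to 33.1), Gata3 (22.5 against 11.7 to 14.5), Oaz1 (1130.1 against 519.95 to 559) and Glb1 (215 against 149.99 to 159.7). It was the low one for Slc3a1 (274 CPM against 466 to 527), Atp11a (826 against 1470.2 to 1638), Slc12a1 (468 against 930.5 to 1011), Umod (1881 against 2875 to 3006), Egf (556 against 1143 to 1246) and Kit (5.72 against 10.9 to 12.1). The same library stood apart in its root mean square log2 difference from WT (0.703 against 0.270 to 0.285), in its number of genes over 2-fold from WT (1977 against 113 to 149) and on the second principal component (-82.0 against 11.9 to 19.1).

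In the male WT group, replicate 2 was high for Aqp6 (93.6 CPM against 46.2 to 59.5), replicate 4 for Adh1 (669.6 CPM against 516 to 557) and replicate 1 for Atp11a (1564.5 CPM against 1018 to 1082).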

How the results depend on the processing

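The number of genes called between male Q and male WT was 0 in the edgeR test of the report, and 897 genes had an unadjusted p under 0.05. The number called was 3 with the Wald test of DESeq2, 1 with no robust estimation, 1 with a replicate block within sex, and 0 to 2 over the fits that left out 1 male library. It was 0 with the replicate block on the 10 libraries alone and in every other alternative run. The number with an unadjusted p under 0.05 was 2123 of 40486 genes with no filter, 554 with only the 10 libraries, where fewer samples set the spread, 473 with the replicate block on those 10, and 708 to 1420 with 1 male library left out. Same-numbered WT and Q libraries did not deviate together: their correlations lay between -0.0854 and 0.0922, and 1 of 5 Q libraries correlated best with its own number. The deviations were taken from a Q mean that includes replicate 4, so these correlations cannot exclude a pairing. Library codes of same-numbered male WT, R and Q libraries follow one another in that order, and whether each set was handled together is not given in the labels. The numbers were not taken to pair the samples, and the block is an alternative only.

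The 24 leading genes were chosen on a sign held with each male WT or Q library left out. The 9 alternatives that kept all of these libraries compare the same 10 libraries, so a sign could hardly change in them. Of the leading genes, 24 of 24 kept their direction there. Of the 54 other named genes 51 kept it in each of 21 alternatives. Aqp2 had log2 fold changes of 0.06 without male WT replicate 2, 0.0043 without male Q replicate 2 and 0.070 without male Q replicate 5, and -0.26 to 0.07 over the libraries left out. Aqp6 had 0.027 without male WT replicate 2, in a range of -0.27 to 0.027, and Pvalb -0.14 without male Q replicate 4, alone or together with female Q replicate 5, in a range of -0.14 to 0.43. The cause was not tested. The interaction of Q and sex had 0 called genes in each alternative that fitted it, also without female WT replicate 2. Genes below about 1 CPM, such as Synpr in WT, rest on few fragments, and their fold changes are imprecise.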
